A study of Mus musculus with 3 samples.

Results

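Cajal-Retzius cells are the reelin-secreting neurons of the outermost layer of the developing cortex and of the outer molecular layers of the hippocampus. They arise early from the cortical hem and other borders of the cortex, and their survival depends on p73, the p53-family protein encoded by Trp73. Reelin is a large secreted protein that binds the receptors Vldlr and Lrp8 on neighbouring neurons and signals through the adaptor Dab1. Most of these cells die after birth in the mouse neocortex, whereas in the hippocampus some persist into later life along the hippocampal fissure. By their counts of marker genes, 93 nuclei were chosen as Cajal-Retzius nuclei among 35322 barcodes of single-nucleus RNA sequencing of mouse hippocampus. The name describes the choice, and some of these nuclei carried interneuron markers, as given below.

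The nuclei were chosen by their own counts of 16 genes. A barcode was taken with at least 2 unique molecular identifiers (UMIs, counted RNA molecules) of Reln and at least 1 UMI of at least 2 of the 6 partner genes Trp73, Lhx1, Lhx5, Ebf3, Ndnf and Cacna2d2. It was dropped above 1 UMI of Gad1 plus Gad2 (GABA synthesis), of Plk5, C1ql3 and Fibcd1 together (granule and pyramidal neurons), or of Mog, Mag, Aqp4 and Csf1r together (glia). What these genes show in the nuclei is therefore a description of the choice and not a result.

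The study addressed HDAC6 inhibition after doxorubicin in the mouse brain. There were 3 libraries with 1 per group. The first came from mice given doxorubicin, an anthracycline that traps topoisomerase II on DNA, together with ACY-1083, an inhibitor of the cytoplasmic deacetylase HDAC6 (called the combination library here). The others came from mice given doxorubicin and from untreated control mice. Each library was made from the frozen hippocampi of both sides of 4 mice, pooled before nuclei were released with Triton X-100, and the labels give no dose, time, sex, strain or age. With 1 pooled library per group, differences between groups have no replicate check, no test was possible, and every interval below is a 95% interval for counting error alone.

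The gate took 65 of 12192 barcodes in the combination library (0.533%, exact binomial interval 0.412 to 0.679%). It took 14 of 12221 barcodes in the doxorubicin library (0.115%, 0.0626 to 0.192%) and 14 of 10909 in the control library (0.128%, 0.0702 to 0.215%). The libraries were not of equal depth: they held 62151258, 21458785 and 19175447 UMIs in the combination, doxorubicin and control libraries, with medians of 3912.5, 1485 and 1487 UMIs per barcode. The headers name Cell Ranger 5.0.0 for the combination library and 4.0.0 for the other two. Barcodes shared between libraries numbered 46 (combination and doxorubicin), 29 (combination and control) and 42 (doxorubicin and control), and none of the 93 chosen barcodes was among them.

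Transcription factors make up most of the 6 partner genes. The products of Trp73, Lhx1, Lhx5 and Ebf3 are such factors and mark Cajal-Retzius cells, Ndnf codes for a secreted neurotrophic factor, and Cacna2d2 codes for an auxiliary subunit of voltage-gated calcium channels. The proximal promoters of 3 gate genes (250 bases upstream of the RefSeq start, RefSeq sequence of GRCm38.p6, written 5′ to 3′ on the strand of the gene) are shown because their transcripts define the nuclei. The last sequence is the stretch between the starts of Lhx1 and its divergent noncoding partner Lhx1os, whose transcripts are counted together below. Capitals mark CCCNNGGG, the core recognised by EBF factors, or CAGCTG, an E-box of the kind bound by basic helix-loop-helix factors such as Nhlh2. Both motifs read the same on both strands.
Reln, chr5:22344706-22344955, minus strand: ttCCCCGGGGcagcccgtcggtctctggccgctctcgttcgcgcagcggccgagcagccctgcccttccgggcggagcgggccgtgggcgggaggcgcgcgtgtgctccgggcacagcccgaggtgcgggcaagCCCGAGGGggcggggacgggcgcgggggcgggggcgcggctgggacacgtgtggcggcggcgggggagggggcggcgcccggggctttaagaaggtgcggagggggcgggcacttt
Trp73, chr4:154139876-154140125, minus strand: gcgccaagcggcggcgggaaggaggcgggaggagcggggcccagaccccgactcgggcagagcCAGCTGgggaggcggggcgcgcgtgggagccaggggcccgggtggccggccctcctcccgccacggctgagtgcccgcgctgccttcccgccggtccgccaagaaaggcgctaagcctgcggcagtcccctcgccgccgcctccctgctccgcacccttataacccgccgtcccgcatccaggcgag
Ebf3, chr7:137314446-137314695, minus strand: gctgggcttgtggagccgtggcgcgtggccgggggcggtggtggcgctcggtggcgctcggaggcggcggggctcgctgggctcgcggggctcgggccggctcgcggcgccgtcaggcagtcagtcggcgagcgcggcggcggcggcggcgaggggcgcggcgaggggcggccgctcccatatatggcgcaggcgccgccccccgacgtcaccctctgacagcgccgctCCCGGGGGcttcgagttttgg
Lhx1 to Lhx1os, chr11:84525535-84525659, plus strand: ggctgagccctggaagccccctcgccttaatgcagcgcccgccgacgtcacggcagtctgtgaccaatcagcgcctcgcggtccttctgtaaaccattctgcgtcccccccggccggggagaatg

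The Reln promoter held 2 matches to CCCNNGGG and the Ebf3 promoter 1, the Trp73 promoter shown held 1 CAGCTG and the 125 bases between Lhx1 and Lhx1os held neither motif. A second Trp73 promoter at chr4:154097174-154097423 and the promoter of Lhx1 at chr11:84525535-84525784 also held neither. These letters are common: CCCNNGGG was in 3882 of 32851 mouse promoters of the same length (11.8%) and CAGCTG in 4271. Of the 78 listed promoters of the signature genes described below, 15 held CCCNNGGG (19.2%) and 8 held CAGCTG (10.3%). A match describes the sequence and not a bound site.

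Reln, which spans 460.2 kb on chromosome 5 (21884454 to 22344702, minus strand, GENCODE vM21 on GRCm38), was the gene the gate asked most of. The 65 combination nuclei held between 2 and 42 Reln UMIs with a median of 9. The doxorubicin and the control nuclei each held between 2 and 5, with medians of 2.5. Only 4 of 65 combination nuclei sat at the threshold of exactly 2 UMIs, whereas 7 of 14 doxorubicin and 7 of 14 control nuclei did.

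**Figure D1:**
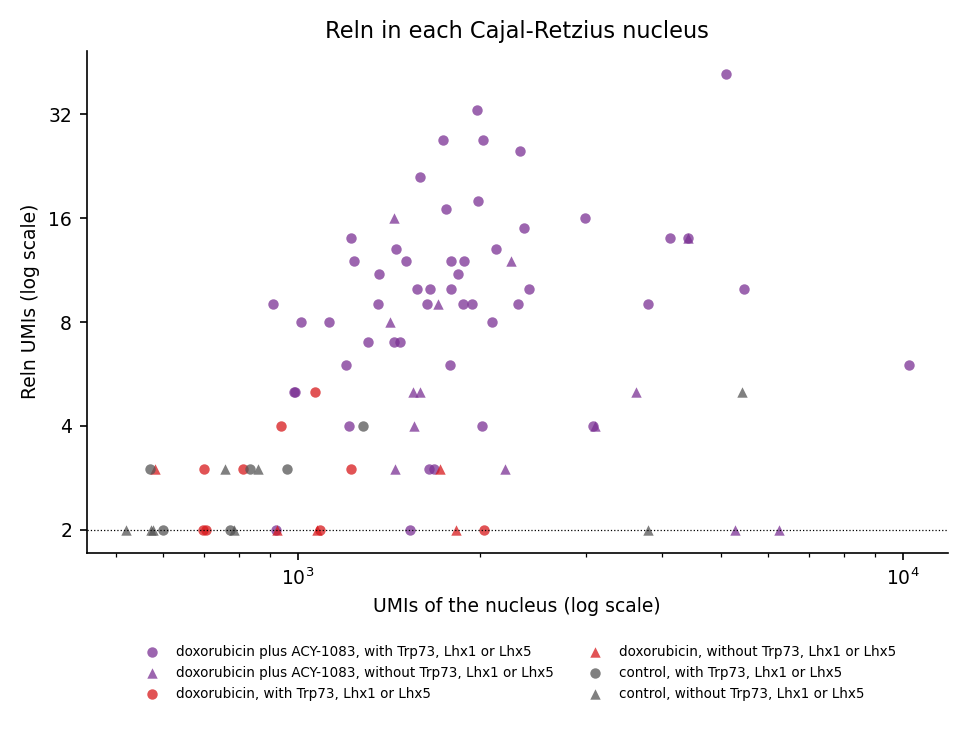
Reln UMIs of each of the 93 nuclei against the UMIs of the nucleus, both on log axes, coloured by library. Combination nuclei reached 42 Reln UMIs, while the doxorubicin and control nuclei lay between the threshold of 2 and 5 and mostly at lower depth.

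Scaled to the UMIs of the nuclei, Reln was at 4613 CPM (UMIs scaled to a total of 1000000) in the combination nuclei (exact Poisson interval 4272 to 4973), 2469 CPM in the doxorubicin nuclei (1747 to 3389) and 2075 CPM in the control nuclei (1469 to 2848). Depth per nucleus was also highest in the combination library. The chosen nuclei had a median of 1759 UMIs and 1129 genes in the combination library, 1003.5 UMIs and 642.5 genes in the doxorubicin library, and 779.5 UMIs and 489 genes in the control library. In each library they were shallower than the median barcode. The control nuclei held 2 that stood apart, with 5419 and 3799 UMIs, and the other 12 held 9093 of the 18311 UMIs.

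Trp73 gave 93 UMIs in 47 of 65 combination nuclei, 4 UMIs in 4 of 14 doxorubicin nuclei and 4 UMIs in 4 of 14 control nuclei. Among all other barcodes of the same library it was seen in 0.915%, 0.442% and 0.275% (combination, doxorubicin, control). As a measure of free RNA, oligodendrocyte nuclei, which should lack the gene, carried it in 0.472% of 1270, in 0% of 426 and in 0.240% of 417 nuclei (median depths of 1534.5, 800 and 800 UMIs). Trp73 is among the genes the nuclei were chosen by, so its level is given as a description.

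The partner genes made unlike contributions. Ndnf was found in 52 of 65 combination nuclei (162 UMIs), 12 of 14 doxorubicin nuclei (34 UMIs) and 12 of 14 control nuclei (21 UMIs). Cacna2d2 was found in 47, 11 and 12 nuclei of the combination, doxorubicin and control libraries. The more selective Ebf3 was found in 36 of 65 combination nuclei (47 UMIs), against 1 of 14 doxorubicin nuclei (1 UMI) and 3 of 14 control nuclei (3 UMIs). Lhx1 was seen in 12, 5 and 3 nuclei with 14, 7 and 3 UMIs, and Lhx5 in 7, 1 and 0 nuclei, in the same order of libraries. The 0 of 14 control nuclei for Lhx5 allows a share of nuclei with an Lhx5 UMI of up to 21.4% (3 nuclei), and does not limit how many express the gene. At least 1 UMI of Trp73, Lhx1 or Lhx5 was present in 51 of 65 combination nuclei, in 9 of 14 doxorubicin nuclei and in 6 of 14 control nuclei, so that 14, 5 and 8 nuclei entered on Ndnf, Ebf3 and Cacna2d2 alone.

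The gate narrowed in steps. In the combination library 940 barcodes had any Reln, 499 had at least 2 UMIs and 98 of these had 2 partner genes. The same steps left 396, 102 and 20 barcodes in the doxorubicin library and 420, 107 and 19 in the control library. GABA synthesis genes then removed 19, 6 and 3, granule and pyramidal genes 12, 0 and 2, and glial genes 2, 0 and 0 (combination, doxorubicin, control).

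Just outside the Reln threshold, with 1 Reln UMI and all else fulfilled, lay 3 barcodes in the combination library, 17 in the doxorubicin library and 15 in the control library. Asking for 1 Reln UMI would therefore have given 68, 31 and 29 nuclei. With 3 partner genes in place of 2 the gate held 44, 5 and 5 nuclei. The share in the combination library moved little with the Reln threshold (0.558% at 1 UMI and 0.5003% at 3 UMIs). In the doxorubicin library it was 0.254% at 1 UMI and 0.0573% at 3 UMIs, and in the control library 0.266% and 0.0642%.

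**Figure D2:**
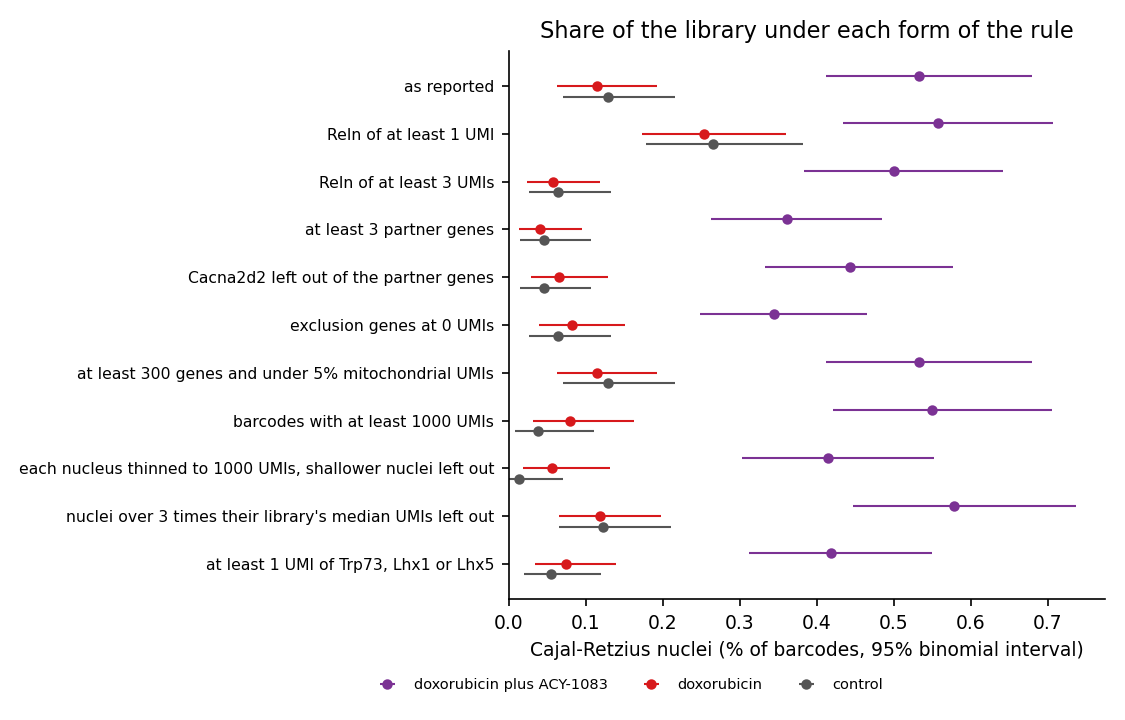
Share of barcodes taken by the gate in each library (percent, exact 95% binomial interval) under the gate as reported and under its alternatives. The combination library lies to the right in each form shown, with 0.558% against 0.254% and 0.266% where 1 Reln UMI was enough.

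Because the libraries differ in depth, each nucleus was also thinned to 1000 UMIs, with shallower nuclei left out. The gate then took 46 nuclei in the combination library (0.414%, 0.303 to 0.552%), 5 in the doxorubicin library (0.0564%, 0.0183 to 0.132%) and 1 in the control library (0.0126%, 0.000318 to 0.0700%). Before thinning, 4 of 65 combination nuclei, 7 of 14 doxorubicin nuclei and 11 of 14 control nuclei were under 1000 UMIs. The interval of the share in the combination library did not overlap those of the other 2 libraries with or without thinning. These intervals cover the counting of barcodes alone and not the spread between libraries, so they do not compare the groups. Reln itself was also higher in the other barcodes of the combination library, at 62.4 CPM against 24.4 CPM in the doxorubicin and 30.3 CPM in the control library, and its part in the shares was not tested. Depth, library and treatment cannot be told apart, since each group is 1 library, and how many Cajal-Retzius cells the dissected pieces held was not measured.

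To check the name, 15 genes of Cajal-Retzius cells that the gate did not use were read in the same nuclei. Together they gave 122 UMIs in the combination nuclei, 12 in the doxorubicin nuclei and 21 in the control nuclei. These sums were 7.14 times (5.90 to 8.50), 4.13 times (2.05 to 6.93) and 6.22 times (3.76 to 9.30) the level of all other barcodes of their library. Against barcodes of a depth like that of the chosen nuclei the sums were 2.93, 2.43 and 3.05 times as high. Calb2, Slc17a6 and Zic1 of this list are also among the markers of thalamic and habenular neurons read below. Those markers stood at 1.49, 3.94 and 1.21 times all other barcodes in the combination, doxorubicin and control nuclei, and at 0.714, 2.29 and 0.479 times like depth. Nr2f2 of the Cajal-Retzius list was also found in Reln-positive GABAergic nuclei (34, 3 and 4 UMIs in the same order). It made up 7 of the 21 UMIs in the control nuclei. Of these 7, 5 were in nuclei without Trp73, Lhx1 or Lhx5, which also held all 15 UMIs of the interneuron marker Adarb2. All 15 genes of the Cajal-Retzius list had at least 1 UMI in the combination nuclei, 8 did in the doxorubicin nuclei and 9 in the control nuclei.

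The clearest of these was Nhlh2, a basic helix-loop-helix factor of newly formed neurons. It gave 16 UMIs in 14 combination nuclei, 1 UMI in the doxorubicin nuclei and 2 UMIs in the control nuclei, and was in 0.198%, 0.188% and 0.211% of the other barcodes. No oligodendrocyte nucleus of any of the 3 libraries held an Nhlh2 UMI. Lhx1os gave 22 UMIs in 17 combination nuclei, 1 in the doxorubicin nuclei and 2 in the control nuclei. Nr2f2, the nuclear receptor COUP-TFII, gave 18, 0 and 7 UMIs, and Slc17a6, the vesicular glutamate transporter found in Cajal-Retzius cells, 12, 1 and 0. Slc17a7, the transporter of hippocampal excitatory neurons, gave 19, 2 and 2 UMIs, more than Slc17a6 in each library. It was in 23.1% of the combination nuclei, 14.3% of the doxorubicin nuclei and 14.3% of the control nuclei. This compares with 47.0%, 46.2% and 48.9% of the deeper other barcodes and 24.0%, 23.9% and 28.1% of oligodendrocyte nuclei. Scaled to depth Slc17a7 stood at 0.685 times (0.402 to 1.04), 0.322 times (0.0312 to 0.932) and 0.242 times (0.0234 to 0.699) the other barcodes.

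Other known markers of these cells gave few counts. Calb2, the calcium-binding protein calretinin, gave 3 UMIs in the combination nuclei and 0 in the doxorubicin and control nuclei. Cxcr4, the receptor that holds these cells near the meninges, gave 2, 0 and 1 UMIs (combination, doxorubicin, control). At this depth a count of 0 leaves room for up to 195 CPM in the doxorubicin nuclei and 164 CPM in the control nuclei.

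Pairs of these transcripts were counted within nuclei of the combination library. Of 36 pairs, 19 were found together in more nuclei than the product of their shares gives and 17 in fewer. Trp73 and Dach1 were both present in 44 of 65 nuclei, where the product of their shares gives 40.5 nuclei. Lhx1 and Lhx1os, which start 125 bases apart on opposite strands of chromosome 11, were both present in 6 nuclei, where the product gives 3.14. Ebf3 and Ndnf were both present in 31 nuclei, against a product of 28.8. Lhx5 and Nhlh2 shared none, against a product of 1.51, and Trp73 and Ebf3 shared 24, against 26.0. Counts this small are a description only, and nuclei of greater depth hold more of any pair. The gate asked for at least 2 of the 6 partner genes in each nucleus, which itself shifts how often pairs of these are found together.

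Markers of other cells that the gate could hold were read against all other barcodes and against barcodes of like depth (between the quartiles of UMIs of the chosen nuclei of the library). All chosen nuclei were kept in both comparisons, also those outside these quartiles. GABAergic interneuron markers beyond Gad1 and Gad2 summed to 169 UMIs in the combination nuclei, 0.600 times the level of all other barcodes (0.512 to 0.696) and 0.602 times that of like depth. They summed to 23 UMIs in the doxorubicin nuclei (1.72 times, 1.07 to 2.53; like depth 1.26, 0.781 to 1.85). They summed to 36 UMIs in the control nuclei (2.32 times, 1.60 to 3.17; like depth 1.65, 1.14 to 2.26). In the combination library 25 of the 169 came from 1 nucleus of 1886 UMIs. In the doxorubicin library 11 of the 23 came from 1 nucleus, which had 1824 UMIs, and in the control library 21 of the 36 came from the nucleus of 5419 UMIs. Adarb2, a marker of caudal interneurons, was at 7 UMIs in 1 doxorubicin nucleus and at 15 UMIs in 3 control nuclei, against 18 UMIs in 14 combination nuclei.

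Oligodendrocyte lineage markers summed to 66, 14 and 13 UMIs (0.715, 0.904 and 0.720 times all other barcodes; 0.134, 0.476 and 0.175 times like depth) and microglia markers to 24, 1 and 0 UMIs, in the combination, doxorubicin and control nuclei. Astrocyte markers summed to 266, 42 and 26 UMIs (1.45, 1.02 and 0.641 times; 0.366, 0.394 and 0.195 times like depth). Of the 266 in the combination nuclei, 43 came from 1 nucleus and 41 from another. Vascular and choroid markers summed to 291, 71 and 28 UMIs (1.85, 1.39 and 0.981 times; 0.616, 0.805 and 0.420 times like depth), of which Ttr, the transthyretin of choroid plexus, made up 243, 63 and 26. In the combination library the barcodes of like depth were richer in glial transcripts than all other barcodes. Their level would give 496 oligodendrocyte lineage and 729 astrocyte UMIs, where that of all other barcodes would give 93.0 and 184. The part of all these marker transcripts in the results below was not tested. Mitochondrial transcripts took 0.0265%, 0.0390% and 0.0437% of the UMIs of the combination, doxorubicin and control nuclei.

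The expression of the combination nuclei was described by the genes that stood at least 4-fold above the other barcodes of that library (log2 of at least 2 with 10 CPM added, and at least 10 UMIs), leaving out the 16 gate genes. Of 3291 genes with enough UMIs, 76 did (2.31%). They were chosen for being high in these nuclei, so that their values in the combination library are a description. In the doxorubicin and control libraries, which the choice did not use, the same 76 genes give a reading of their own. In the combination library, where they were chosen, all 76 were also higher against barcodes of like depth, 59 of them at least 4-fold. The median ratio there was 8.64, again a description of the choice. The genes described here were taken from the head of this set after their values were seen.

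The leading gene was Dach1, a transcriptional cofactor of the dachshund family on chromosome 14 (97786853 to 98169765, minus strand). It gave 208 UMIs in 56 of 65 combination nuclei, where the level of the other barcodes would give 4.61, a ratio of 45.2 (38.9 to 52.1). Against other barcodes of like depth the ratio was 19.6. The doxorubicin and the control nuclei held 1 Dach1 UMI each, with ratios of 16.1 (0.271 to 61.3) and 15.6 (0.262 to 59.6) whose intervals span 1.

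Several of the leading genes act outside the cell or at its membrane. Eln, the elastic-fibre protein elastin, gave 47 UMIs in 30 combination nuclei (ratio 47.0), against 1 UMI in the doxorubicin nuclei and 0 in the control nuclei. Tmem163, a zinc transporter of vesicles, gave 108 UMIs in 43 nuclei (22.8), against 1 and 0. Hs3st5, which adds a sulfate group to heparan sulfate, gave 97 UMIs in 44 nuclei (21.8), against 0 and 0. Utrn, the dystrophin relative utrophin, gave 173 UMIs in 57 nuclei (18.6), against 5 UMIs in the doxorubicin and 2 in the control nuclei. The cadherin Cdh4 gave 83 UMIs in 40 nuclei (14.3), against 0 and 1. These and the next counts come from 147200 UMIs in the combination nuclei, against 15390 and 18311, so counts of 0 or 1 do not show absence. Among the other barcodes, the combination library stood above the doxorubicin library for Hs3st5 (16.5 times), Cdh4 (5.38), Tmem163 (4.97) and Utrn (1.89), but not for Eln (0.741).

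Others act on DNA or RNA. Casz1 gave 19 UMIs (32.4) and Nhlh2 gave 16 (253) in the combination nuclei. The Notch coactivator Maml3 gave 183 UMIs (8.38) in the combination nuclei, 6 in the doxorubicin nuclei and 1 in the control nuclei. The chromatin remodeller Chd7 gave 48, 2 and 2 UMIs, and the RNA-binding protein Msi2 gave 194, 7 and 11, in the combination, doxorubicin and control nuclei. Emx2, a homeobox factor of the medial cortex, gave 10, 1 and 3 UMIs. Ion channels were among the most abundant: Kcnh7 gave 601 UMIs (6.18) and Kcnb2 gave 507 (5.29), though 44 of the Kcnb2 UMIs came from 1 nucleus.

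**Figure D3:**
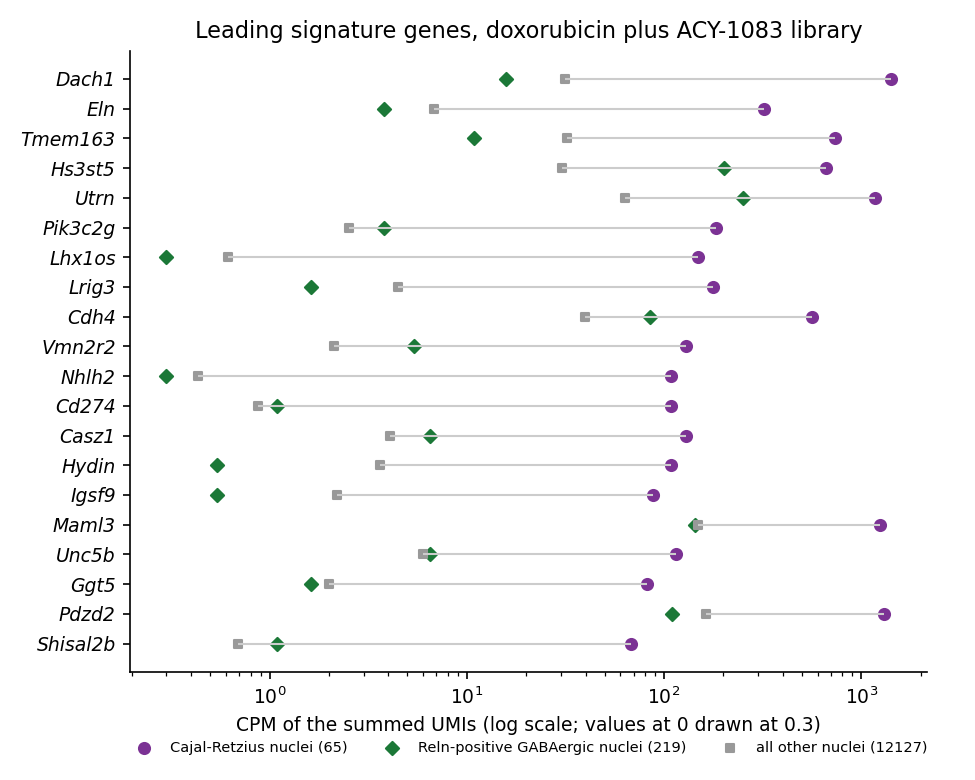
Level of the leading signature genes in the combination library, in CPM of summed UMIs on a log axis, in the 65 chosen nuclei, in Reln-positive GABAergic nuclei and in all other barcodes. Dach1 stands at 1413 CPM in the chosen nuclei and at 31.3 CPM in the other barcodes.

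As a share of each nucleus, the 76 genes made up 0.709 to 7.59% of the UMIs in the combination nuclei, with a median of 4.53%. In the other barcodes of that library the median was 0.446% and the 95th percentile 0.927%, and 61 of 65 chosen nuclei exceeded the latter value. In the doxorubicin nuclei the share was 0.110 to 1.87% with a median of 0.916%, against 0.139% in the other barcodes, whose 95th percentile of 0.435% was exceeded by 12 of 14 nuclei. In the control nuclei it was 0.185 to 2.01% with a median of 0.830%, against 0.148%, and 13 of 14 exceeded the 95th percentile of 0.446%. The nucleus of 1824 UMIs in the doxorubicin library and that of 5419 UMIs in the control library, which carried the interneuron markers, had the lowest shares, 0.110% and 0.185%.

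Summed, the 76 genes gave 133 UMIs in the doxorubicin nuclei where the level of the other barcodes would give 23.9, a ratio of 5.59 (4.66 to 6.60). They gave 120 UMIs in the control nuclei where 29.9 would be given, a ratio of 4.04 (3.33 to 4.81). In the combination nuclei, where they were chosen, the sum was 5483 UMIs against 746, a ratio of 7.35 (7.15 to 7.54). Of the 76 genes, 55 were detected in the doxorubicin or control nuclei. Over both of these libraries together 54 were above the level of the other barcodes and 35 were at least 4 times above it. Among all 3291 genes the same held for 1517 (46.1%) and 81 (2.46%).

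Gene by gene, only a few had enough UMIs outside the combination library to be read. Robo2, a receptor for the guidance cue Slit, gave 426 UMIs in the combination nuclei, 11 in the doxorubicin nuclei where 1.47 would be given (7.84, 3.74 to 13.4), and 8 in the control nuclei where 1.85 would be given (4.60, 1.87 to 8.55). The atypical cadherin Fat3 gave 300 UMIs in the combination nuclei, 11 in the doxorubicin nuclei and 13 in the control nuclei. The scaffold protein gene Pdzd2 gave 192, 3 and 10 UMIs.

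Fat3 was also the only one of 66 genes with at least 10 UMIs in the chosen nuclei of each library to stand at least 4-fold above the other barcodes in each of the 3 (1.52%). Its log2 ratios were 2.45, 2.46 and 2.33 in the combination, doxorubicin and control libraries. Next came Gnas, which codes for a stimulatory G protein subunit, with ratios of 2.23, 2.33 and 1.99, and Bcl11a, a zinc-finger factor, with 1.87, 2.87 and 1.83. The lowest in the same sense were Ahi1 (0.637, 0.685 and 0.565), Auts2 (0.695, 0.693 and 0.758) and Rsrp1 (0.777, 0.688 and 0.635). The filter of at least 10 UMIs was set on the chosen nuclei, so it leaves out genes that are very low in them. The lowest and the highest ratios can therefore not be set against each other.

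Within the chosen nuclei, those with Trp73, Lhx1 or Lhx5 had the higher summed signature in each library, though in the doxorubicin library the intervals overlapped. In the combination library the 76 genes stood at 8.15 times the level of the other barcodes in the 51 nuclei with such a transcript and at 5.02 times in the 14 without. The genes were chosen on the sum of both sides, to which the 51 gave 109348 UMIs and the 14 gave 37852. The choice thus leaned to the larger side, and these 2 ratios are a description. In the doxorubicin library the ratios were 5.94 (4.72 to 7.31) in 9 nuclei with and 5.10 (3.72 to 6.69) in 5 without. In the control library they were 6.90 (5.16 to 8.88) in 6 nuclei with and 2.98 (2.27 to 3.77) in 8 without. The sums without such a transcript in the control library hold both nuclei of high depth. In the combination library both sides hold deep nuclei of low share, among them 6256 UMIs (0.735%) without and 10233 UMIs (0.997%) with. The median share per nucleus was 4.64% with and 3.85% without in the combination library. It was 0.861% and 1.03% in the doxorubicin library, the other way round, and 1.04% and 0.714% in the control library.

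Single genes followed the split unequally in the combination nuclei. Eln gave 44 UMIs in nuclei with such a transcript and 3 in those without (CPM ratio 4.40, 1.63 to 25.6), and Chd7 gave 45 and 3 (4.50). Dach1 was nearly as high in both, with 162 and 46 UMIs and a ratio of 1.21 (0.874 to 1.73). Lower in nuclei with such a transcript were Dab1 (37 against 27 UMIs, 0.472), the neuregulin receptor Erbb4 (43 against 28, 0.528) and Adarb2 (9 against 9, 0.346). Cux2, a transcription factor gene of upper-layer neurons, gave 3 against 6 (0.186, 0.0280 to 0.810) and the signature gene Klhl1 11 against 10 (0.379). These genes were chosen after their values were seen.

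Just inside and outside the gate the signature gave another view of its edges. In the doxorubicin library the 7 nuclei with 2 Reln UMIs had a median signature share of 0.828%, the 7 with 3 or more had 1.001%, and the 17 barcodes with 1 Reln UMI outside the gate had 0.989%. In the control library these medians were 0.892%, 0.719% and 1.45% over 7, 7 and 15 barcodes. Of the barcodes outside, 5 of 17 in the doxorubicin library and 6 of 15 in the control library held Trp73. Those with only 1 partner gene were lower, at 0.235% in 14 doxorubicin and 0.270% in 16 control barcodes. In the combination library the medians were 4.60% in 61 nuclei with 3 or more Reln UMIs, 2.52% in 4 with 2, 1.51% in 3 with 1, and 0.727% in 52 with 1 partner gene. The Reln threshold thus left out barcodes whose median signature share was no lower than that of the chosen nuclei in the doxorubicin and control libraries (0.916% and 0.830%).

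Reelin in the hippocampus is also made by GABAergic interneurons, and these are the nearest other source. Barcodes with at least 2 Reln UMIs and at least 2 UMIs of Gad1 plus Gad2 numbered 219 in the combination library (of 284 in all), 33 in the doxorubicin library and 32 in the control library, with medians of 7278, 2113 and 2338.5 UMIs in the same order. In the combination library 78 of 10004 genes were at least 4-fold higher in the chosen nuclei than in these (0.78%) and 181 at least 4-fold lower (1.81%). Since both gates are made of the counts themselves, these are descriptions.

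Dach1 was 88.5 times (60.7 to 137) as high in the Cajal-Retzius nuclei as in the Reln-positive GABAergic nuclei. The leucine-rich repeat protein Lrig3 was 94.8 times, Eln 79.3 times, Tmem163 66.3 times and Chd7 22.9 times as high. Lhx1os gave 22 UMIs in the Cajal-Retzius nuclei and 0 in the GABAergic nuclei. In the other direction Adarb2 gave 18 UMIs in Cajal-Retzius nuclei and 7967 in GABAergic nuclei (CPM ratio 0.0291), Erbb4 71 and 7889 (0.113), and Dlx6os1, a noncoding RNA of the forebrain interneuron lineage, 2 and 752 (0.0416). Of the 66 signature genes with enough UMIs, 65 were higher than in the GABAergic nuclei, where 5503 of all 10004 genes were. The signature genes were chosen for being high in these same nuclei, so this count largely follows from the choice and is a description.

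The signature genes together were 4.95 times as high in Cajal-Retzius nuclei as in the GABAergic nuclei of the combination library. The ratio was 3.88 (3.05 to 4.91) in the doxorubicin library and 3.16 (2.48 to 4.00) in the control library. The set was not chosen on the doxorubicin and control libraries.

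Gene lists by role were then read against the other barcodes of the combination library. The chosen nuclei were shallower, with a median of 1759 UMIs against 3912.5 over the library, so each list was also read against 1604 barcodes between 1449 and 2316 UMIs, the quartiles of the chosen nuclei. Against all other barcodes 58.5% of 2958 genes were higher in the chosen nuclei, with a median log2 ratio of 0.14. Against barcodes of like depth it was 51.4% of 3175 genes, with a median of 0.02. All 65 chosen nuclei were kept, up to 10233 UMIs, so only the other barcodes were limited in depth. The barcodes of like depth also held more oligodendrocyte and astrocyte transcripts, as given above. The part of this mix of cells in the ratios was not tested. Several lists turned round between the comparison with all other barcodes and that with like depth.

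**Figure D4:**
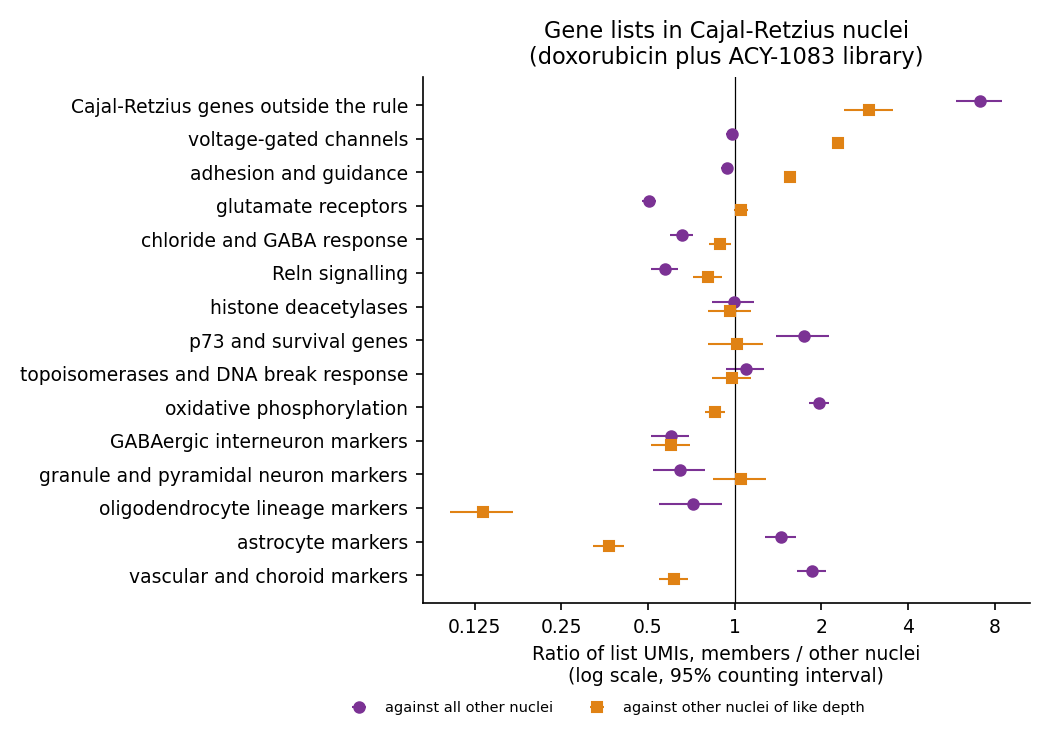
Ratio of the summed UMIs of each gene list, chosen nuclei over other barcodes of the combination library, on a log axis with 95% counting intervals, against all other barcodes and against those of like depth. Glutamate receptors and oxidative phosphorylation lie on opposite sides of 1 in the 2 comparisons, while voltage-gated channels stand at 0.983 against all other barcodes and at 2.29 against like depth.

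Voltage-gated channels, which set how a neuron fires, were higher in 7 of 19 measured members against all other barcodes (median log2 -0.08, summed ratio 0.983). Against like depth 16 of 20 were higher (median 0.84, summed ratio 2.29). Kcnc2, a fast potassium channel, gave 141 UMIs in 47 of 65 combination nuclei, 2.53 times the level of all other barcodes and 10.7 times that of barcodes of like depth. It gave 6 UMIs in 5 doxorubicin nuclei where 0.622 would be given and 4 in 4 control nuclei where 0.747 would be given. The potassium channel gene Kcnq5 gave 247 UMIs (1.63 and 6.05 times), with 0 UMIs in the doxorubicin and 1 in the control nuclei. The calcium channel subunit gene Cacna2d1, the relative of the gate gene Cacna2d2, gave 226 UMIs (2.42 and 4.94 times), 6 in the doxorubicin nuclei and 10 in the control nuclei.

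Adhesion and guidance genes, which place axons and synapses, were higher in 9 of 30 members against all other barcodes (median -0.96, summed ratio 0.941) and in 13 of 28 against like depth (median -0.01, summed ratio 1.56). The list was uneven: Robo2 stood at 5.69 and 11.95 times, and Epha3, an ephrin receptor, gave 68 UMIs at 2.60 and 7.15 times. Cdh8 gave 16 UMIs at 0.253 times and Ntng1, a netrin relative, 15 UMIs at 0.227 times all other barcodes. Ntng1 shows how few nuclei a sum can rest on: its 11 UMIs in the doxorubicin library came from 1 nucleus, and 15 of its 22 UMIs in the control library did.

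Of the glutamate receptors 2 of 16 were higher against all other barcodes (median -0.85, summed ratio 0.505). Against like depth it was 7 of 16 (median -0.10, summed ratio 1.05, 0.994 to 1.11). Gria4, an AMPA receptor subunit, gave 186 UMIs in 54 of 65 combination nuclei (2.80 and 4.94 times). It gave 8 UMIs in 8 doxorubicin nuclei (3.89 times, 1.58 to 7.23) and 4 UMIs in 3 control nuclei (1.62 times, 0.393 to 3.70). Gria1 gave 178 UMIs (0.524 and 1.80 times) and Gria2 gave 280 (0.717 and 1.10 times). In the doxorubicin nuclei the list stood at 0.515 times all other barcodes and 0.693 times those of like depth. In the control nuclei it stood at 0.717 and 1.14 times.

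The chloride and GABA response list bears on the known depolarising action of GABA on these cells, attributed to a high ratio of the chloride importer Slc12a2 to the exporter Slc12a5. The importer gave 11, 1 and 0 UMIs and the exporter 12, 0 and 2 UMIs in the combination, doxorubicin and control nuclei, too few to order them. Against all other barcodes of the combination library the importer stood at 1.01 times (0.484 to 1.74) and the exporter at 0.829 times (0.411 to 1.39), and against like depth at 0.385 and 1.60 times. Of the list 1 of 11 members was higher against all other barcodes (median -0.30, summed ratio 0.655) and 4 of 9 against like depth (median -0.09, summed ratio 0.892). The GABA-A receptor subunit genes Gabrb1 (69 UMIs, 0.449 times) and Gabra2 (26 UMIs, 0.353 times) were among the lower.

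The reelin pathway list, which does not hold Reln itself, was higher in 7 of 8 measured members against all other barcodes of the combination library (median log2 0.29), yet its summed UMIs stood at 0.573 times. Against like depth 4 of 8 were higher (median 0.01, summed ratio 0.808). The median and the sum against all other barcodes differ in sign, and the 1 lower member is Dab1. Dab1, which transmits the signal in receiving cells, gave 64 UMIs in 20 of 65 combination nuclei where the level of all other barcodes would give 349 (0.185 times, 0.141 to 0.234). It was in 77.2% of the other barcodes, and against like depth it stood at 0.502 times (0.382 to 0.638). The doxorubicin nuclei held 1 Dab1 UMI and the control nuclei 2, where 2.62 and 3.31 would be given. The receptors were near the level of the other barcodes: Vldlr gave 6, 1 and 1 UMIs, at 1.28 times (0.432 to 2.57) in the combination nuclei, and Lrp8 gave 10, 2 and 2, at 1.36 times (0.622 to 2.39).

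Nuclear-encoded genes of oxidative phosphorylation, the respiratory chain of mitochondria, were higher against all other barcodes in each of 19 measured members (median 1.02, summed ratio 1.97, 1.81 to 2.13). Against like depth 11 of 31 were higher (median -0.15, summed ratio 0.857). Cox4i1 gave 39 UMIs at 2.03 and 0.815 times. In the doxorubicin nuclei the list stood at 1.35 and 0.826 times, and in the control nuclei at 1.28 and 0.679 times. Transcripts of other cells moved likewise in the combination nuclei: Ttr of the choroid plexus stood at 2.02 and 0.735 times, and Apoe, a lipid carrier of astrocytes, at 2.11 and 0.480 times. Their part in the result was not tested.

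The drug targets gave little to read. Hdac6, which codes for the target of ACY-1083, gave 7 UMIs in 7 of 65 combination nuclei (1.85 times the other barcodes, 0.692 to 3.56), 1 UMI in the doxorubicin nuclei and 0 in the control nuclei. Of the other histone deacetylases Hdac8 gave 42 UMIs (1.55 times), Hdac4 16 (1.27) and Hdac9 29 (0.494) in the combination nuclei, and 2 of 4 measured members of the list were higher. Topoisomerases and genes of the DNA break response stood at 1.09 times all other barcodes (3 of 6 higher) and at 0.983 times those of like depth. Genes of p73 and cell survival stood at 1.74 and 1.02 times, with Mdm2, the ubiquitin ligase of p53, at 15 UMIs (2.63 times). Immediate early genes, which report recent activity, gave 27, 3 and 6 UMIs in all.

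The doxorubicin and the control nuclei were compared over 90 genes with at least 20 UMIs in the pair, outside the gate genes. At least 2-fold higher were 8 genes (8.89%) and at least 2-fold lower 7 (7.78%). With TMM factors the split was 6 higher and 11 lower, and with median-of-ratios factors 5 and 13. The median log2 ratio was 0.02, with 46 genes higher and 44 lower. The interval lay above 1 for 6 genes and below 1 for 9. TMM moved every log2 ratio by -0.10 and median-of-ratios factors by -0.25.

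Ddx5, an RNA helicase, was higher, with 51 UMIs in 13 doxorubicin nuclei against 22 in 10 control nuclei (ratio 2.72, 1.64 to 4.78). Among the other barcodes of these libraries its ratio was 1.21. Ttr gave 63 UMIs in all 14 doxorubicin nuclei against 26 in 12 control nuclei (2.85, 1.80 to 4.74), and among the other barcodes it was 2.28 times as high. Without the control nuclei of 5419 and 3799 UMIs the Ttr ratio was 1.67 (1.03 to 2.89), while that of Ddx5 was 2.65 (1.41 to 5.83). Rufy2 gave 16 against 6 UMIs (3.02), the histone methyltransferase gene Kmt2a 16 against 7 (2.62) and Apoe 25 against 14 (2.09). Without those 2 control nuclei the Apoe ratio was 1.21.

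Zbtb20, a transcription factor of hippocampal neurons and glia, was lower, with 2 UMIs in 2 doxorubicin nuclei against 23 in 9 control nuclei (0.127, 0.0118 to 0.419). It stood at 0.880 times among the other barcodes. The calcineurin subunit gene Ppp3ca gave 7 against 32 UMIs (0.275), R3hdm1 5 against 23 (0.278) and Hnrnpu 5 against 21 (0.304). A single control nucleus held 13 of the 32 Ppp3ca UMIs, 12 of the 23 R3hdm1 UMIs came from 1 nucleus, and 7 of the 21 Hnrnpu UMIs did likewise. Gria2 gave 46 against 108 UMIs (0.510, 0.351 to 0.722), but 0.733 (0.466 to 1.17) without the 2 deep control nuclei. The long noncoding RNA Meg3 gave 259 against 419 UMIs (0.736, 0.627 to 0.861). Its direction turned without those nuclei, to a ratio of 1.20. Zbtb20 stood at 0.109 (0.00996 to 0.402) without them and at 0.301 (0.0245 to 1.89) in nuclei with Trp73, Lhx1 or Lhx5.

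The gate genes gave few UMIs in these libraries. Reln gave 38 UMIs in 14 doxorubicin nuclei and 38 in 14 control nuclei (1.19, 0.739 to 1.92), Trp73 gave 4 and 4 (1.19, 0.222 to 6.39), and Lhx1 gave 7 and 3 (2.55, 0.634 to 16.6). Ndnf gave 34 in the doxorubicin nuclei and 21 in the control nuclei (1.91, 1.09 to 3.49). As genes the nuclei were chosen for, they are a description. Nr2f2 gave 0 UMIs in the doxorubicin nuclei and 7 in 5 control nuclei.

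Between the combination and the doxorubicin nuclei many more genes differed, and most of them were also at least 2-fold apart among all other barcodes. Of 1546 genes with at least 20 UMIs in the pair, 576 were at least 2-fold higher (37.3%) and 235 at least 2-fold lower (15.2%) in the combination nuclei. The split rests on the scaling and on the handling of low counts: with TMM factors it was 956 higher and 16 lower, and with median-of-ratios factors 902 and 25. TMM raised every log2 ratio by 1.05 and median-of-ratios factors by 0.94. With 5 UMIs added in place of 0.5 the split was 73 higher and 709 lower, and with no filter on low counts 1317 and 5829. Of the 576, 440 were also at least 2-fold higher among the other barcodes, and of the 235, 143 were also lower (76.4% and 60.9%). Of all 1546 genes, 38.7% were at least 2-fold higher and 15.8% at least 2-fold lower among the other barcodes. Over the 1546 genes the log2 ratios of the chosen nuclei and of the other barcodes had a Pearson r of 0.723, given as a description, since both come from the same 2 libraries.

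The adhesion protein gene Cntnap2 gave 1126 UMIs in all 65 combination nuclei against 3 in 3 doxorubicin nuclei (33.7, 13.4 to 191), and its ratio among the other barcodes was 29.8. Nrg3, a neuregulin, gave 448 UMIs against 0, with 69.8 among the other barcodes. Lsamp gave 1496 against 9 (16.5, 9.13 to 38.1; 18.1 among the others) and Kcnb2 507 against 2 (21.2; 16.2 among the others). In the other direction the nuclear noncoding RNA Malat1 gave 12708 UMIs in the combination nuclei and 3252 in the doxorubicin nuclei (0.409; 0.330 among the others), Meg3 812 and 259 (0.327; 0.349) and Snhg11 711 and 204 (0.364; 0.340). Under TMM Malat1 stood at 0.848, Meg3 at 0.680 and Snhg11 at 0.755. The control library, compared with the same combination library, gave Cntnap2 2 UMIs (56.1 times as high in the combination nuclei; 28.4 among the others), Lsamp 6 (28.6; 17.7) and Meg3 419 (0.241; 0.322). At least 2-fold higher than in the control nuclei were 570 of 1575 genes (36.2%) and at least 2-fold lower 208 (13.2%).

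Long genes made up the higher side. The genes at least 2-fold higher in the combination than in the doxorubicin nuclei spanned a median of 271 kb in the genome, those at least 2-fold lower 29.2 kb, and all 1546 measured 122 kb. Against the control nuclei these medians were 268, 30.8 and 121 kb. Gene span and the Cell Ranger versions moved with the comparison, and their part in the result was not tested.

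By role, 16 of 19 measured adhesion and guidance genes were higher in the combination than in the doxorubicin nuclei, with a median log2 ratio of 2.47, against 2.46 for the same genes among the other barcodes. Of the glutamate receptors 11 of 13 were higher (1.20; 1.67 among the others), and of the voltage-gated channels 13 of 17 (0.94; 1.46 among the others). Of the oxidative phosphorylation genes 12 of 13 were lower (-1.08; -1.37 among the others), but under TMM their median was -0.02. All genes had a median of 0.48, with 930 of 1546 higher, against 0.51 among the other barcodes.

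The gate genes themselves stood on both sides of 1. Reln was 1.85 times as high in the combination as in the doxorubicin nuclei (1.35 to 2.66), where the other barcodes gave 2.56. Against the control nuclei it was 2.20 times as high (1.60 to 3.17), where the other barcodes gave 2.06. Trp73 was at 2.17 times the doxorubicin level (0.918 to 9.11), Ndnf at 0.492 times (0.342 to 0.744) and Lhx1 at 0.202 times (0.0790 to 0.612), where the other barcodes gave 0.774, 0.683 and 0.223. Under TMM these were 4.51, 1.02 and 0.420, so that the direction of Ndnf rests on the scaling. Dach1 and Eln were chosen for being high in the combination nuclei, so their difference is a description. Dach1, with 208 UMIs against 1, was at 14.5 times the doxorubicin level (3.86 to 863), where the other barcodes gave 5.19. Eln, with 47 against 1, was at 3.31 times (0.840 to 198), where they gave 0.741.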

How the data were processed

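The files hold UMI counts as deposited, for 32285 genes and every called barcode of 3 libraries, made by the authors without normalization. Cell Ranger 5.0.0 is named in the header of the combination matrix and 4.0.0 in the headers of the other 2 (per the file headers), whereas version 6.0.0 and build mm10 stand in the submitters' processing notes. The sources used here do not give whether intron reads were counted. All barcodes (at least 500 UMIs) were kept, no doublet caller was run and nothing was clustered.

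UMIs of the chosen nuclei were summed per library and divided by their total (CPM). Intervals are exact at 95% (Poisson for CPM, Clopper-Pearson for shares and, conditional on the sum, for ratios), and they and the limit of 3 counts behind a count of 0 cover counting error only. With 1 library per group there is no test. Calls were at least 4-fold against other barcodes (10 CPM added) and at least 2-fold between libraries (0.5 UMI added, at least 20 UMIs in the 2 sums). List genes were measured where observed plus expected UMIs reached 20 in the combination library and 10 in the others. Named by rule were the gate genes, the 20 highest and 5 lowest genes against other barcodes, and the leading genes between libraries by the interval bound nearest to 1, without mitochondrial, ribosomal, hemoglobin, sex-linked and predicted genes. List members were named after their values were seen. The nuclei and lists were chosen with earlier results of these data known; the 76 signature genes, the barcodes of like depth and the sets without deep nuclei were chosen after seeing the data. Calculations used Python 3.11.15, numpy 2.4.6, scipy 1.17.1 and pandas 2.3.3, with scaling factors from edgeR 4.0.16 (TMM) and DESeq2 1.42.0 (median of ratios) in R 4.3.3, and were tested on simulated counts. Gene positions came from GENCODE vM21, and promoters from RefSeq, which matched 54 of the 76 signature genes.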

Additional observations from a re-analysis of the deposited data

How the results depend on the processing

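No paired analysis was possible because each group has 1 library. The share of barcodes moved beyond its interval under these forms of the gate. With 1 Reln UMI it was 0.254% (doxorubicin) and 0.266% (control). With 3 Reln UMIs it was 0.0573% and 0.0642%. With 3 partner genes it was 0.361%, 0.0409% and 0.0458% (combination, doxorubicin, control). With the exclusion genes at 0 UMIs it was 0.345% (combination) and 0.0642% (control). Thinned to 1000 UMIs it was 0.0564% (doxorubicin) and 0.0126% (control). In the control library alone it was 0.0458% without Cacna2d2, 0.0377% with at least 1000 UMIs and 0.055% with Trp73, Lhx1 or Lhx5 required. The order of the combination library above the others held in each of these. The count of genes 4-fold higher in each library was 1, and 0 with 3 Reln UMIs, without Cacna2d2, with the exclusion genes at 0, thinned, with Trp73, Lhx1 or Lhx5 required, or with at least 20 UMIs, and 13 with no filter.

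Between doxorubicin and control nuclei 8 genes were higher and 7 lower. Higher were 3 without Cacna2d2, 4 with the exclusion genes at 0, 1 thinned, 4 with Trp73, Lhx1 or Lhx5, 5 with median-of-ratios factors, 2 with at least 50 UMIs, 2543 with no filter, 5 with 5 UMIs added and 5 without the deepest nucleus of each library. Lower were 3 with 3 Reln UMIs, 0 without Cacna2d2, 0 with the exclusion genes at 0, 1 thinned, 3 without nuclei over 3 times the library's or over 3 times the members' median UMIs, 0 with Trp73, Lhx1 or Lhx5, 11 with TMM, 13 with median-of-ratios factors, 1 with at least 50 UMIs, 2749 with no filter, 4 with 5 UMIs added and 4 without the deepest nuclei.

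Between combination and doxorubicin nuclei 576 genes were higher and 235 lower. Under the same settings the counts were 330 and 115 with the exclusion genes at 0, 150 and 34 thinned, 956 and 16 with TMM, 902 and 25 with median-of-ratios factors, 221 and 40 with at least 50 UMIs, 1317 and 5829 with no filter, and 73 and 709 with 5 UMIs added. Against barcodes of like depth glutamate receptors turned to 1.05 (combination) and 1.14 (control), and oxidative phosphorylation to 0.857, 0.826 and 0.679 (combination, doxorubicin, control). Meg3 turned to 1.25 without the deepest nuclei, 1.20 without members over 3 times the median and 1.01 with Trp73, Lhx1 or Lhx5. The cause was not tested for the changes of direction. Depth limits the doxorubicin and control nuclei, with 15390 and 18311 UMIs in 14 nuclei each. Single genes there rest on a handful of UMIs.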

Other observations

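Markers of neurons from outside the hippocampal fields were read in the same nuclei. Markers of entorhinal and cortical excitatory neurons summed to 122 UMIs in the combination nuclei (0.758 times all other barcodes, 0.627 to 0.902), 12 in the doxorubicin nuclei (0.617, 0.306 to 1.03) and 7 in the control nuclei (0.292, 0.109 to 0.561). Markers of thalamic and habenular neurons summed to 196 UMIs in the combination nuclei, 1.49 times all other barcodes (1.29 to 1.71) but 0.714 times barcodes of like depth (0.615 to 0.822). They summed to 10 UMIs in the doxorubicin nuclei (3.94, 1.80 to 6.91; like depth 2.29, 1.04 to 4.04) and 3 in the control nuclei (1.21, 0.213 to 3.03; like depth 0.479, 0.0845 to 1.21). Vesicular transmitter transporters summed to 48, 11 and 4 UMIs in the combination, doxorubicin and control nuclei (1.17, 1.16 and 0.347 times).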
